A study of Homo sapiens with 8 samples.

Results

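The comparison is of ZR-75-1 breast cancer cells depleted of EI24 with the same cells carrying normal EI24. All 4 arrays of shEI24 cells were set against all 4 control arrays, which makes up the 8 arrays of the series. ZR-75-1 is a luminal, estrogen receptor-positive line. Of the 4 lines, the shEI24 lines are given as 2 independent clones that stably express short hairpin RNA (shRNA) against EI24. One control line expresses a hairpin against GFP (shGFP) and the other is the parental line without a hairpin. Each line was hybridized to 2 arrays and no line received another treatment that the labels name. Each shEI24 line is 1 clone, and no source used here states whether both carry the same hairpin, or whether the shGFP line is a clone.

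EI24 is a membrane protein of the endoplasmic reticulum whose gene is induced by p53 and which takes part in autophagy. Loss of the protein has been studied in connection with epithelial-mesenchymal transition (EMT), the change in which epithelial cells give up cell-cell junctions and take on the cytoskeleton, matrix and motility of mesenchymal cells. Such a change is known to involve receptors and ligands at the cell surface, transcription factors that keep the epithelial state, secreted proteases, cytokines and microRNAs.

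A gene was called shared when each clone differed from each control line in the same direction, so that each of 4 line-to-line differences had to pass an adjusted p of 0.05 in limma. The 4 differences share arrays. The smallest of these 4 differences is used below as the size that both clones reached against both controls. EI24 itself had log2 intensities of 8.64 and 8.43 in clone 1, 9.25 and 9.19 in clone 2, 11.97 and 11.91 in shGFP cells and 12.08 and 12.09 in parental cells. Every clone array lay below every control array. The clones minus the controls came to -3.13 on the log2 scale with a standard error of 0.07, which is 8.78-fold lower (limma, adjusted p = 1.4e-09), and the smallest of the 4 line differences was -2.72.

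Of 18417 genes, 5560 were higher (30.2%) and 5886 lower (32.0%) in the clones than in the pooled controls. Shared changes were fewer. There were 2823 shared higher genes (15.3%) and 3727 shared lower genes (20.2%), and these shares are the background for the gene groups below. At least 2-fold in all 4 line differences were 1137 higher genes (6.17%) and 1017 lower genes (5.52%). In all of the shared genes the 4 clone arrays and the 4 control arrays did not overlap. Over all genes, 4383 (23.8%) had every clone array above every control array and 4945 (26.9%) had every clone array below. The 2 controls differed from each other in 1962 genes (10.7%). The 2 clones differed in 2793 genes (15.2%). A gap of more than 2-fold passed limma's treat test in 44 genes (0.239%). That test leaves out genes with a measured gap above 2-fold that was not significantly beyond it.

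The shared genes of at least 2-fold mostly had similar sizes in both clones. They had to change in both, so genes that changed in a single clone are left out by this selection. Among the 1137 genes, the median gap between the clones was 0.27 on the log2 scale, and 828 had a gap under 0.5. Among the 1017 lower genes the median gap was 0.19. At least 16-fold in all 4 line differences were 98 higher and 28 lower genes. The shared higher genes of at least 2-fold had a median log2 intensity of 7.02 in controls and 9.58 in clones, whereas the lower ones went from 9.73 to 7.80. The first principal component, which held 88% of the variance, separated clones from controls. The clones parted on the second, with 5.01%, and the controls on the third, with 3.49%. The 4 lines can be paired so that no array is used more than once. Over all genes, clone 1 minus shGFP correlated with clone 2 minus parental at r = 0.903, and clone 1 minus parental with clone 2 minus shGFP at r = 0.915. These are descriptions across genes, which are not independent replicates. Whether both arrays of a line hold RNA of separate cultures is not given in the sources used here. The p-values therefore rest on a spread between arrays that could be technical alone. With each line counted as 1 replicate, 2743 genes were called higher and 3423 lower, in place of 5560 and 5886. These included 1125 of the 1137 higher genes and 1013 of the 1017 lower genes. Those genes were picked by the same line differences, so that overlap is largely set by the selection and is no separate evidence.

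**Figure D1:**
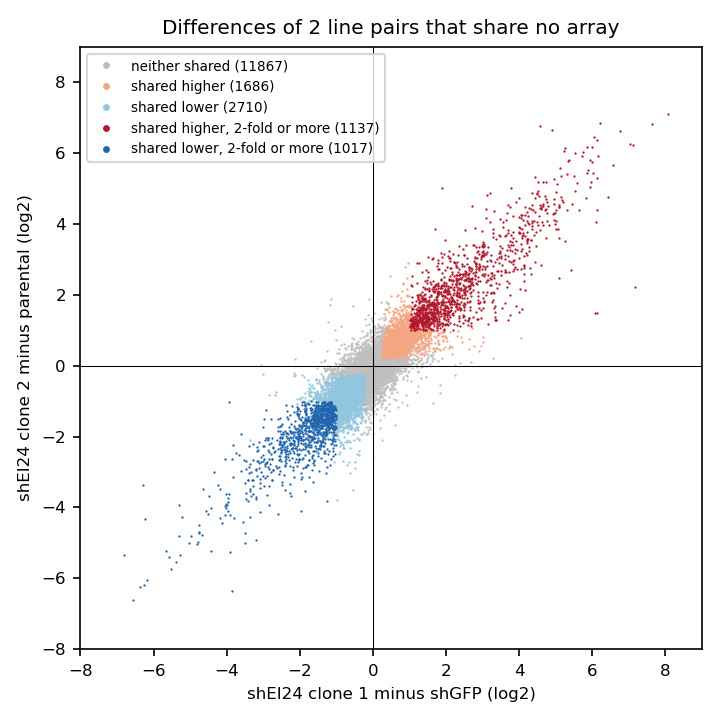
Each point is a gene. The horizontal axis gives its log2 difference between shEI24 clone 1 and shGFP cells, and the vertical axis that between shEI24 clone 2 and parental cells, so the axes share no array. The 1137 shared higher and 1017 shared lower genes of at least 2-fold lie in the upper right and lower left, and r over all genes is 0.903.

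Genes are named by the size of this smallest difference. The highest belonged to MMP1, an interstitial collagenase. Its log2 intensity was 13.72, 13.57, 13.69 and 13.59 in the clone arrays, 5.58 in both shGFP arrays and 6.70 and 6.36 in the parental arrays, a difference of at least 7.11 against either control (mean difference 7.59, standard error 0.09, adjusted p = 1.2e-10 from limma). PTGS2, the inducible cyclooxygenase of prostaglandin synthesis, came next, with 12.85, 12.83, 12.12 and 12.07 in the clones and between 5.17 and 5.38 in the controls. In both genes every clone array lay above every control array, as in all of the shared higher genes. CNN3, an actin-binding calponin, went from between 5.23 and 5.75 to between 11.96 and 12.19. TFPI2, a serine protease inhibitor, ANTXR2, a receptor that binds basement membrane proteins, and the interferon-induced genes IFIT2 and IFI44 were the next by this measure, with smallest differences of 6.25, 6.23, 6.12 and 6.07. MSN, which links actin to the membrane, ANKRD1, a nuclear cofactor, VIM, the mesenchymal intermediate filament, PLAT, tissue plasminogen activator, TMEM156, NAV3, NT5E, which makes extracellular adenosine, and ANXA1 also belonged to the 15 highest. These genes were picked by this difference, so their clone arrays lie far above the control arrays by selection. The clones differed by at most 0.77 on the log2 scale.

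The genes that fell furthest were bright in both controls and dim in both clones. ELOVL2, an elongase of polyunsaturated fatty acids, was at 12.31 and 12.23 in shGFP cells, 12.47 and 12.46 in parental cells, and 5.82, 5.58, 5.65 and 6.05 in the clones, a smallest difference of -6.42 (mean difference -6.59, standard error 0.10, adjusted p = 2.7e-10 from limma). NETO2, an auxiliary subunit of kainate receptors, fell from between 11.16 and 11.34 to between 4.83 and 5.32. CDH1, which encodes E-cadherin, fell from between 12.30 and 12.34 to between 6.09 and 6.48. These 3 genes had the largest smallest differences among the lower genes. ABCA12, a lipid transporter, GRHL2, a transcription factor that maintains epithelial cells, SPTSSB, a subunit of serine palmitoyltransferase, and GFRA1, a receptor for GDNF-family ligands, had smallest differences of -5.52, -5.41, -5.16 and -5.06. SPTSSB also differed between the controls, with 12.19 and 12.13 in shGFP cells against 10.51 and 10.48 in parental cells. The histone genes H2BC7, H4C5 and H3C11, the small GTPase gene RAB25, FAR2, the estrogen target GREB1, GATA3 and ESR1 were also among the 15 lowest.

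**Figure D2:**
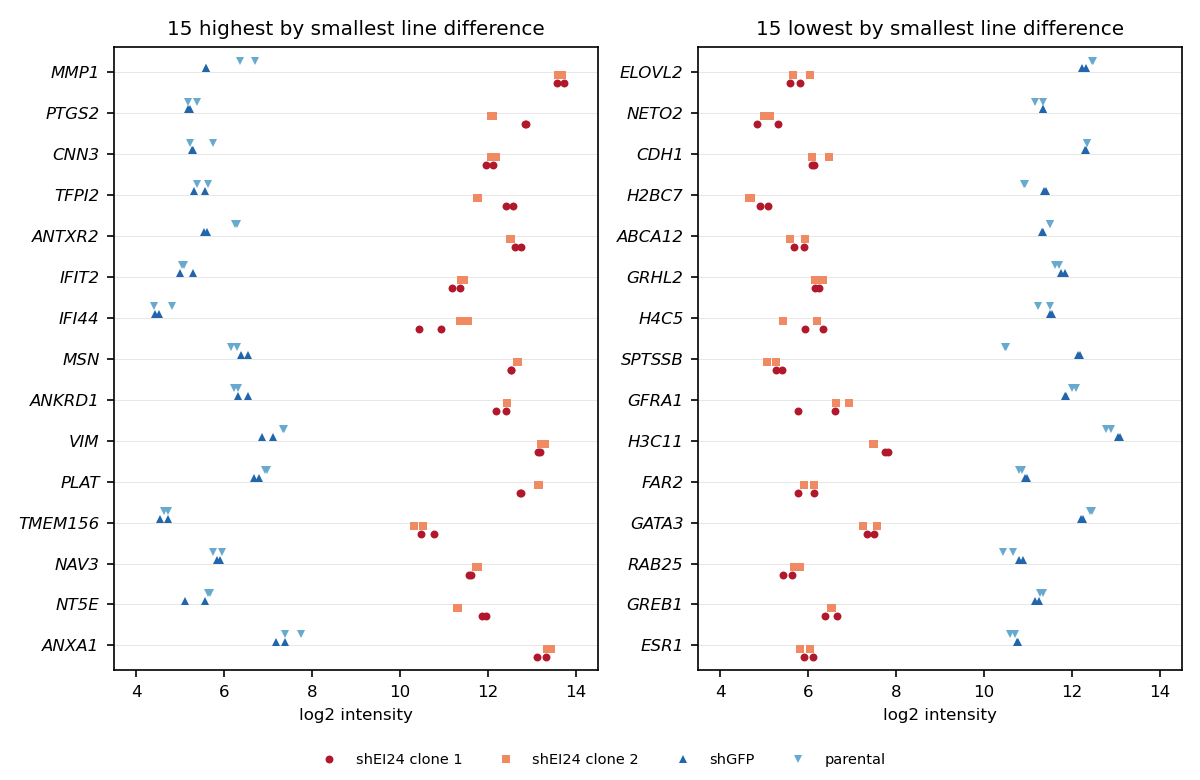
Log2 intensity in each array of the 15 genes with the highest and the 15 with the lowest smallest line difference. Colours and shapes mark the 4 lines, 2 arrays each. The genes were picked by this difference, so the clone arrays and the control arrays lie apart in all 30, as for MMP1 (7.11) and ELOVL2 (-6.42).

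A stricter description counts genes that went from the dim to the bright part of the array. Switched on were 105 genes, whose 4 control arrays all lay under the 30th percentile of their array and whose 4 clone arrays all lay over the 70th. The reverse held for 37 genes. Those percentiles were at log2 values of 6.81 and 9.09 on average. The 5 switched on with the largest difference were PTGS2, CNN3, ANTXR2, TFPI2 and IFI44. The 5 switched off were ELOVL2, H2BC7, NETO2, CDH1 and SPTSSB. Dim values lie near background, which limits how well the fold of a switched gene is known.

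Regulators of the epithelial state fell together. Of 21 measured epithelial transcription and splicing regulators, 15 were shared lower (71.4%, against 20.2% of all genes) and 3 shared higher, with a median log2 difference of -1.93 against 0.07 over all genes. GRHL2 fell from between 11.62 and 11.83 in the controls to between 6.16 and 6.34 in the clones. GATA3, a luminal master regulator, fell by 4.92, RBM47, an RNA-binding protein, by 3.05 and FOXA1, which opens chromatin for the estrogen receptor, by 2.30 on the log2 scale. The exceptions named by rule were PRDM1, a repressor, and KLF5, a Krüppel-like factor, which rose by 1.52 and 1.49. In the controls the luminal markers were bright. All 12 luminal markers were shared lower in the clones, where ESR1 was at 5.81 to 6.11 against 10.59 to 10.78 (a second, dimmer transcript cluster of ESR1 differed by 0.00) and EPCAM at 7.72 to 8.10 against 11.83 to 11.86. The clones nevertheless kept bright KRT8 (11.76 to 12.08) and KRT18 (11.43 to 11.77), the keratin pair of simple epithelia. KRT19 was at 9.85 and 9.96 in clone 1 but 12.16 and 12.12 in clone 2, against controls at 12.54 to 13.00. With each line as 1 replicate KRT19 had an adjusted p of 0.14 from limma.

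Junction genes as groups moved less than these regulators. Of 27 claudin and tight junction genes 7 were shared lower (25.9%, against 20.2% of all genes) and 2 shared higher (7.41%, against 15.3%). Of 15 desmosome genes 3 were shared lower and 2 shared higher, both near the shares of all genes. The median log2 differences of these lists were 0.11 and -0.01, so neither median shows a fall of the group. MARVELD2, the tricellulin gene, fell by 3.40 and CLDN3 by 2.94 on the log2 scale. CLDN1 rose by 3.15, with clone 1 higher than clone 2 by 1.10. Of 48 keratins 4 were shared lower and 5 shared higher, below the background in both directions. Among 21 apicobasal polarity genes 7 were lower and 1 higher, led by RAB25 at -5.06 and the Par complex member PARD6B at -2.32. PRSS8 and ST14, the membrane proteases prostasin and matriptase, fell by 3.27 and 2.60 in a list of 15 with 6 lower and none higher.

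Receptor kinases moved in both directions. Among 15 ERBB receptors and ligands 6 were shared higher and 4 shared lower, with a median of 0.16. EGFR was at 11.91, 11.82, 11.77 and 11.64 in the clones and 6.72, 6.81, 7.38 and 7.06 in the controls. HBEGF, one of its ligands, rose by 4.56. In the other direction, ERBB3 fell by 2.75 and ERBB4 by 3.67, both receptors for neuregulins, and ERBB4 was also 1.08 higher in shGFP than in parental cells. Of 19 further receptor kinases 7 were higher and 5 lower. AXL, the GAS6 receptor, rose by 4.58 and ROR1, a Wnt receptor, by 2.40, while the collagen receptor DDR1 fell by 2.48 and FGFR4 by 2.04. In the Eph family, EPHA2 rose by 3.02 whereas EPHB4, EFNA3 and EFNA4 fell by 1.91, 1.83 and 1.66. The guidance gene SEMA3A rose by 4.96 and SEMA4A fell by 3.33 in a list of 47 in which 18 rose and 8 fell in all comparisons.

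Among matrix-remodeling genes, of 26 metalloproteinases and TIMPs 9 were shared higher (34.6%), none shared lower and 17 neither. MMP14, which activates other metalloproteinases at the membrane, rose by 4.31, the inhibitor TIMP1 by 3.06 and MMP3 by 2.83. Of 38 plasminogen activators, serpins and related inhibitors 14 were shared higher (36.8%), none shared lower and 24 neither. PLAT rose by 6.09, PLAU, the urokinase gene, by 5.23 and F3, tissue factor, by 4.93. Lysyl oxidases and collagen-modifying enzymes were shared higher in 11 of 20 and shared lower in 4 (a share near the 20.2% of all genes), with LOX, a collagen cross-linking enzyme, at 10.99, 10.90, 11.09 and 11.05 in the clones and 5.79 to 6.05 in the controls. PLOD3, which hydroxylates collagen lysines, was among those that fell, by 0.92. The collagens themselves were higher in only 7 of 43 (16.3%, near the 15.3% of all genes) and none was lower. COL12A1 rose by 3.54 and COL4A2, a basement membrane collagen, by 1.33. Among laminins, LAMB3 rose by 5.35 and LAMB1 fell by 2.15, the latter with a difference of 1.77 between the clones and an adjusted p of 0.051 from limma with each line as 1 replicate. Genes of caveolae, the small invaginations of the plasma membrane, were higher in 6 of 9. CAV1 was at 12.07 to 12.29 in the clones, 5.91 and 6.23 in shGFP cells and 8.17 and 8.13 in parental cells, so the controls differed by 2.08 yet lay well below the clones. CAVIN3 and CAVIN1 rose by 3.20 and 3.09.

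Targets and effectors of the Hippo pathway, in which the coactivators YAP and TAZ act with TEAD factors, were shared higher in 14 of 22 and lower in 3, with a median of 1.09. ANKRD1, a target, was at 12.41, 12.18, 12.42 and 12.43 in the clones and 6.22 to 6.54 in the controls. The matricellular targets CCN1 and CCN2 rose by 4.62 and 4.43, whereas TEAD2 fell by 1.37. Genes of TGF-beta and activin signaling divided, with 10 of 23 higher and 8 lower. The activin subunit gene INHBA rose by 5.00, the ligand TGFB2 by 4.11 and the receptor TGFBR2 by 4.07, while TGFB3 and the inhibitory SMAD7 fell by 1.79 and 1.30. TGFBR2 was 1.04 lower in shGFP than in parental cells.

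Part of the inflammatory mediators measured were higher in both clones. Of 16 IL6-family and STAT3 genes 9 were shared higher, of 18 interleukin 1 genes 7, of 37 chemokines 11 and of 21 prostaglandin genes 7. Neither shared higher nor shared lower were 6, 11, 24 and 13 of them. IL6 was at 11.95 and 11.79 in clone 1, 9.91 and 10.14 in clone 2 and 5.51 to 5.85 in the controls. IL1A and IL1B rose by 5.61 and 3.77 on average. IL1B was at 12.10 and 11.91 in clone 1 and only 7.34 and 7.44 in clone 2, against 5.74 to 6.06 in the controls, and its call was lost with each line as 1 replicate (adjusted p = 0.12 from limma), whereas IL18, another cytokine of the family, was at 8.13 to 9.24 in all clone arrays. The coreceptor IL6ST and the cytokine LIF rose by 2.94 and 2.92, and JAK2, a kinase of these receptors, fell by 1.43. Among chemokines, CXCL8 and CXCL11 rose by 4.58 and 4.51, while CXCL12 fell by 3.99. PLA2G4A, which releases arachidonic acid, the substrate of PTGS2, rose by 3.90. Complement genes were higher in 5 of 25 and lower in 2. CFB rose by 3.83 and C3 by 3.78, while CLU fell by 2.76. C3 differed between the clones by 2.77, with clone 1 the higher.

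Interferon-stimulated genes had the highest share of shared higher genes of the 59 lists. Of 42 measured, 34 were shared higher (81.0%), 20 of them at least 2-fold, 1 was shared lower and 7 were neither, with a median of 1.46. IFIT2, whose product restrains viral translation, was at 11.35, 11.17, 11.39 and 11.46 in the clones and 4.99 to 5.30 in the controls. IFI16, a DNA sensor, was at 10.40 to 10.88 against 4.64 to 5.14, and IFIT1 at 11.14 to 11.64 against 5.51 to 5.89. The one that fell was USP18, which restrains interferon signaling, by 0.86. DDX60, a helicase of antiviral signaling named after its values were seen, was at 10.32 and 10.04 in clone 1, 12.07 and 11.92 in clone 2 and 5.17 to 5.38 in the controls. Genes of MHC class I presentation were higher in 10 of 15 and none was lower. The light chain B2M rose by 2.13 and the immunoproteasome subunits PSMB8 and PSMB9 by 2.12 and 2.11. Of 41 proteasome genes, which include these subunits, 4 were shared higher (9.76%) and 8 shared lower (19.5%), not above the shares of all genes. PSMD6 and PSMC2 were among those that fell, by 2.10 and 1.16. Of 18 checkpoint ligands 6 were shared higher (33.3%), 2 shared lower (11.1%) and 10 neither. CD274 (PD-L1) was at 9.78 to 10.56 in the clones and 5.28 to 5.91 in the controls, and PDCD1LG2 rose by 3.17. In the other direction, CD276 fell by 0.96.

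Proliferation genes were lower in both clones. Of 47 DNA replication genes 29 were shared lower (61.7%) and none shared higher, with a median of -1.14. GINS2, a subunit of the replicative helicase, was at 11.44 and 11.40 in shGFP cells, 12.12 and 11.93 in parental cells, 9.64 and 9.48 in clone 1 and 8.48 in both arrays of clone 2. ORC5 of the origin recognition complex, MCM7 of the helicase and the licensing factor CDT1 fell by 2.06, 2.13 and 1.99. Of 38 mitosis genes 27 were shared lower (71.1%) and none higher, but only 3 by at least 2-fold in all comparisons, with a median of -0.68. ESPL1, the separase gene, and SPC25 of the kinetochore fell by 1.39 and 1.78. The G1 regulators divided, with 4 of 21 higher (19.0%, against 15.3% of all genes) and 6 lower (28.6%, against 20.2%). CDK6 was at 10.17 to 10.48 in the clones and 6.28 to 6.66 in the controls and CCND2, one of its cyclins, rose by 3.22, whereas RBL2, a pocket protein, fell by 1.63.

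Neighboring genes were compared in windows of 20 measured genes in the order of the RefSeq table of GRCh38.p14. Over 17931 windows the median log2 difference was between -0.80 and 0.48 from the 1st to the 99th percentile. The lowest window, on chromosome 6, ran through the main cluster of replication-dependent histone genes from HFE to H2BC10. Its median was -2.64, with 15 of 20 genes shared lower and 1 higher. H2BC7 was at 11.37, 11.40, 10.91 and 10.94 in the controls and 4.92, 5.09, 4.70 and 4.65 in the clones. Next to it H4C5 fell by 5.47 and H4C4 by 4.06, while H1-4 was at 13.70 in the controls and 13.62 in the clones and was not shared. A second histone window from H4C9 to H2AC17 had a median of -1.58, with 13 lower and none higher. H3C11 fell by 5.31 and H1-5 by 4.73 there. Histone genes are near-identical in sequence, so probes may read more than 1 copy and the values of single genes are uncertain.

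The third window, on chromosome 5, held protocadherins, adhesion proteins encoded in tandem arrays. From PCDHA2 to PCDHB8, 17 of 20 genes were shared lower and none higher, with a median of -1.45. PCDHA10 was at 10.13 to 10.38 in the controls and 6.77 to 7.37 in the clones, and PCDHB3 at 9.13 to 9.55 and 4.99 to 5.95. PCDH10, which lies outside this array, fell by 4.01. The alpha genes share their last exons and beta genes are alike, so they are not independent readings. A window on chromosome 7 from LRWD1 to RINT1 had a median of -1.14 with 12 lower and 1 higher. It included DNAJC2 and ARMC10, and also ORC5 and PSMC2, named above with the DNA replication and proteasome genes. Whether their fall goes with position or with function was not tested. A cluster of zinc finger genes on chromosome 19 from ZNF101 to ZNF100 had a median of -1.12 with 13 lower and 2 higher. Of 480 measured genes named ZNF, 174 were shared lower (36.2%) and 47 higher (9.79%). ZNF730 fell by 3.42, but ZNF426 and ZNF215 rose by 3.75 and 3.51.

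The highest windows were less extreme. From MAML2 to MMP3 on chromosome 11 the median was 1.01, with 12 of 20 higher. Besides MMP1 it held ARHGAP42, which rose by 4.57 (0.03 in a second, dimmer cluster), the Notch coactivator MAML2, which rose by 3.89, YAP1 and BIRC2, but also the progesterone receptor PGR, which fell by 3.96. The metallothionein window on chromosome 16, from MT2A to RSPRY1, had a median of 0.97 with 15 higher and none lower. MT1E, a metal-binding protein, was at 11.25 to 11.48 in the clones and 7.10 to 7.64 in the controls, whereas MT1F differed by only -0.01, with the same caution about near-identical copies. By contrast, chromosome 16 as a whole had the highest share of shared lower genes, 33.2% of 759, and the lowest share of shared higher genes, 7.91%. The share of shared higher genes reached 23.5% on chromosome 4. Differences between chromosomes were not tested.

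Genes of mitochondria and ribosomes shifted down by small amounts. Of 73 mitochondrial ribosomal proteins 39 were shared lower (53.4%) and 2 higher, with a median of -0.41. Of 78 respiratory chain genes 34 were shared lower (43.6%) and 1 higher, also with a median of -0.41. Of 64 cytosolic ribosomal proteins 28 were lower (43.8%) and 2 higher, with a median of -0.32. NDUFB9 of complex I was at 11.70 to 11.86 in the controls and 9.49 to 9.86 in the clones. MRPS21 fell by 1.77 and RPL13 by 1.52, while RPL10 rose by 1.71 from between 10.72 and 10.97 to between 12.48 and 12.66. Ribosomal protein genes have many pseudogene copies, and probes may read more than 1 of them.

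Glycolysis and hypoxia genes were higher in 16 of 31 and lower in 4, with a median of 0.58. LDHB, a lactate dehydrogenase subunit, was at 11.90, 11.84, 11.65 and 11.73 in the clones and 5.86 to 6.28 in the controls. NDRG1, a hypoxia-induced gene, rose by 3.63 and EPAS1, a hypoxia-inducible factor, by 2.34, whereas CA12, a carbonic anhydrase of estrogen receptor-positive cells, fell by 3.03. In fatty acid metabolism 7 of 22 genes rose and 8 fell. ELOVL2 and the desaturase SCD (-1.76) were lower, while the acyl-CoA synthetases ACSL5 and ACSL4 rose by 4.46 and 2.89. Cholesterol genes were lower in 10 of 23 and higher in 2. SQLE and DHCR7, enzymes of the synthesis, fell by 2.75 and 1.67, and ABCA1, which exports cholesterol, rose by 2.17. Among antioxidant genes 6 of 30 rose and 6 fell. GPX1, a glutathione peroxidase, was at 11.58 to 11.90 in the clones and 7.72 to 7.99 in the controls, although a second, dimmer cluster of GPX1 differed by only 0.56. GSR, glutathione reductase, fell by 1.77.

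The amino acid response under ATF4 was the list in which the controls disagreed most. Of 26 genes 11 were shared lower and 1 higher, with a median of -0.51, but the median of shGFP minus parental was 0.86. SLC7A5, a transporter of large neutral amino acids, was at 12.85 to 12.95 in all control arrays and 10.21 to 10.39 in the clones. PHGDH of serine synthesis was at 12.20 and 12.13 in shGFP cells, 11.41 and 11.22 in parental cells and 8.85 to 9.12 in the clones. STC2 fell by 3.77 against shGFP and 2.41 against parental cells. A total of 97 genes moved in opposite directions against the 2 controls. The cystine transporter SLC7A11 was at 11.55 and 11.58 in shGFP cells, 8.48 and 8.21 in parental cells and 9.48 to 10.43 in the clones, so that the clones were 1.61 below one control and 1.61 above the other. The pooled difference of 0.00 (adjusted p = 0.97 from limma) therefore describes neither. The stress genes DDIT3, DDIT4 and CHAC1 were likewise below shGFP by 0.73, 1.50 and 0.66 and above parental cells by 1.48, 0.67 and 1.21. The transporter ABCG2 was above shGFP by 0.96 and below parental cells by 1.15.

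**Figure D3:**
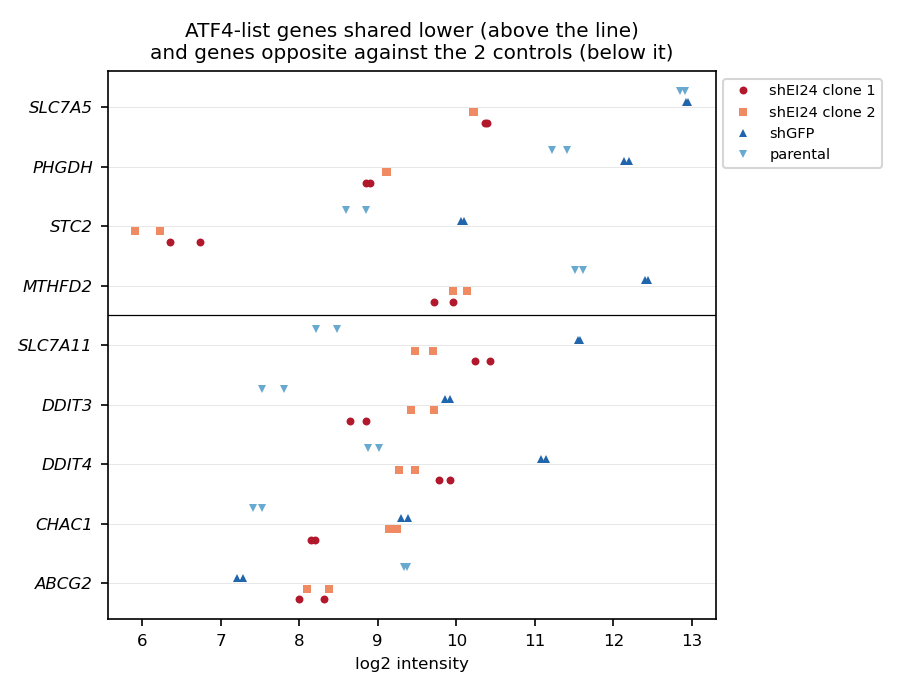
Log2 intensity in each array of 4 genes of the ATF4 list that were shared lower (above the line) and of the 5 genes with opposite differences against the 2 controls (below the line). For SLC7A11 the clone arrays at 9.48 to 10.43 lie between parental cells at 8.21 and 8.48 and shGFP cells at 11.55 and 11.58.

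Of 28 measured microRNA and host genes linked to EMT or the let-7 family, 6 were shared higher (21.4%), 1 shared lower and 21 neither. The array reads precursor or host transcripts, not mature microRNAs. The guide strands of the 7 shared genes are shown because their seeds, which pair with target mRNAs, sort them. Sequences are from RefSeq, GRCh38.p14, from 5′ to 3′, and capitals mark the seed, bases 2 to 8.
let-7a-5p (MIRLET7A2, chr11:122146568-122146589, minus strand): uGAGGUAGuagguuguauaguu
miR-100-5p (MIR100, chr11:122152275-122152296, minus strand): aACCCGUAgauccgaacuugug
miR-125b-5p (MIR125B1, chr11:122099809-122099830, minus strand): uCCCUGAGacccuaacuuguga
miR-221-3p (MIR221, chrX:45746180-45746202, minus strand): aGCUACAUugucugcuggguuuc
miR-222-3p (MIR222, chrX:45747036-45747056, minus strand): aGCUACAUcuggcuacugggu
miR-21-5p (MIR21, chr17:59841273-59841294, plus strand): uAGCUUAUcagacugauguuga
miR-200c-3p (MIR200C, chr12:6963742-6963764, plus strand): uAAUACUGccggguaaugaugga

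The first 3 lie close together on one strand of chromosome 11. MIRLET7A2 was at 10.38, 9.74, 10.55 and 10.27 in the clones and 4.61, 5.06, 4.18 and 4.50 in the controls, a difference of 5.65 (standard error 0.16, adjusted p = 7.1e-09 from limma). MIR100 rose by 3.17 and MIR125B1 by 0.80. MIR221 and MIR222, neighbors with the same seed, were at 8.53 to 9.12 and 6.89 to 7.37 in the clones and at 4.85 to 5.55 and 5.07 to 5.36 in the controls. MIR21 rose by 1.70 but was also higher in shGFP than in parental cells, at 9.55 and 9.78 against 8.83 and 8.40. The one that fell was MIR200C, by 0.94, with all clone arrays (5.59 to 6.20) below all control arrays (6.42 to 7.31). MIR141, its neighbor, differed by -0.17 and did not pass, as did the other copy of let-7a on the array, MIRLET7A1, with 0.17. These 2 were named after their values were seen.

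Of 19 genes of DNA methylation, TET enzymes and Polycomb complex PRC2, 11 were shared lower (57.9%) and 2 higher. TET2, which oxidizes methylcytosine, was at 11.30 to 11.41 in the controls and 8.79 to 9.11 in the clones, and TET1 and DNMT3B fell by 2.12 and 1.32. HOX genes, which mark position along the body axis, were shared higher in 5 of 27 (18.5%) and shared lower in 3 (11.1%), near or below the shares of all genes, with HOXC10 at -3.12 and HOXB9 at 2.71. Of 28 p53 target genes, which include EI24, 12 were shared lower and 7 higher. Against this majority, PLK2, GADD45A and the death receptor TNFRSF10B rose by 2.36, 2.29 and 1.73. In the BCL2 and death receptor list 11 of 25 were higher and 2 lower. The BH3-only gene PMAIP1 rose by 3.97, and BCL2, an inhibitor of cell death, fell by 2.30. Autophagy genes were higher in 11 of 38 (28.9%, against 15.3% of all genes) and lower in 6 (15.8%, against 20.2%). GABARAPL1, OPTN and WIPI1, which act at the autophagosome, rose by 3.35, 2.81 and 2.12, while the kinase ULK2 and the conjugating enzyme ATG10 fell by 2.55 and 2.25. Lysosomal genes were higher in 11 of 39 (28.2%) and lower in 6 (15.4%), led by the cathepsins CTSS and CTSC at 2.86 and 2.32.

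The shares were near or below the background in both directions for solute carriers, with 54 of 359 higher and 76 lower (21.2%), and for potassium channels, with 7 of 85 in each direction. Single members were large: SLC27A2, a fatty acid transporter, fell by 4.03 and KCNQ3 rose by 2.34. Of 30 cancer-testis genes 1, SSX1, was shared higher, at 11.94 and 11.82 in clone 1, 7.57 and 7.38 in clone 2 and 4.62 to 5.33 in the controls. With each line as 1 replicate SSX1 had an adjusted p of 0.069 from limma.

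For markers of other cell types, none of the 9 fibroblast markers was shared higher or shared lower, and COL1A1 was at 8.34 to 8.47 in the clones and 8.34 to 8.51 in the controls. Of 7 leukocyte markers CD68, a lysosomal protein, rose by 3.88 and CD14 by 0.89, while PTPRC, which defines leukocytes, was between 4.20 and 4.54 on all arrays. Of 6 endothelial markers KDR rose by 1.70, of 5 melanocyte markers MITF by 2.53, and of 5 basal breast markers 2 were higher. Of 5 neural markers SNAP25, a protein of synaptic vesicle fusion, fell by 0.98 and the others were neither shared higher nor shared lower. The log2 of the summed leukocyte markers was 11.99 to 12.14 in the clones and 9.13 to 9.39 in the controls. Most of the sum in the clones was CD68, at 11.82 to 11.99 there and 7.82 to 8.23 in the controls. The part of the leukocyte markers in the other results was not tested. Bulk RNA cannot tell a change in the share of cells from a change in RNA per cell. Promoter sequence is shown for 2 genes of the inflammatory and Hippo groups, chosen after their values were seen and because they hold a match. Capitals mark a match to the AP-1 motif TGANTCA in CXCL8 and to the TEAD motif GGAATG in ANKRD1, searched on both strands. The sequences read toward the gene and are from RefSeq, GRCh38.p14.
CXCL8 (chr4:73740422-73740448, plus strand): ggaagtgtgaTGACTCAggtttgccct
ANKRD1 (chr10:90921292-90921317, minus strand): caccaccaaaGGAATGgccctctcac
ANKRD1 (chr10:90921200-90921225, minus strand): cactgagtctGGAATGaaaattcacc

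Among the promoters of 14239 measured genes, from 250 bases before to 50 after the start, 5.58% held the AP-1 letters and 11.6% the TEAD letters. A match is a description of the letters and not a site of binding.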

How the data were processed

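RNA of 8 samples was hybridized to Affymetrix arrays. The methods name a human exon array, but the identifiers match annotation of the Human Gene 1.0 ST array. The authors deposited log2 intensities, with 1 value for every transcript cluster on each array. GCOS and RMA are named in the submitters' processing notes. RMA is a method that normalizes arrays to the same distribution of intensities, and neither comes with a version. A change in total RNA would therefore not be seen and dim values compress differences. Array medians were between 7.28 and 7.394. Of 33297 clusters, 19460 had 1 gene symbol in the platform annotation, 1754 had several and 12083 had none. The brightest cluster per gene, by mean over the 8 arrays, left 18417 genes, and 1043 further clusters were set aside.

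A mean for each of the 4 lines was fitted with limma 3.58.1 in R 4.3.3, which leaves 4 residual degrees of freedom, and p-values were adjusted by Benjamini-Hochberg over all genes. Groups came from the sample titles, in which the clone was read from the number before the dash and the replicate from the one after it. The contrast was the mean of both clones minus the mean of both controls. A difference between clones above 2-fold was tested with treat. Fold values come from log2 intensities. The comparison and the gene lists were chosen with earlier results of these data known. Genes named in the text were EI24, the 15 highest and 15 lowest by smallest shared difference, up to 4 shared members of a list with the largest such difference and up to 2 against its majority, 5 switched genes each way, 5 genes opposite against the controls, and members of the highest and lowest windows. Genes outside this rule are marked as such or are cell type markers. Gene order came from RefSeq, in which 18368 genes were placed. Promoter entries existed for 77.3% of genes and for 78.1% and 79.6% of the shared higher and lower genes of at least 2-fold, under 80%, so the comparison of motifs between gene sets was void and is not given. Calculations were tested on simulated data with independent noise and no difference between lines other than the changes put in. That test does not show how the calls behave when lines vary. The number of arrays limits the precision.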

Additional observations from a re-analysis of the deposited data

Results flagged for a closer look

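Of the 44 genes in which the clones differed by more than 2-fold in limma's treat test, 7 are among those described with values above. Clone 1 was higher than clone 2 by log2 differences of 4.62 for IL1B, 4.40 for SSX1, 2.77 for C3, 1.85 for IL6 and 1.77 for LAMB1. The difference was -2.24 for KRT19 and -1.82 for DDX60, which were higher in clone 2. All 7 were shared changes against both controls in the main fit, so there the clones differed in size and not in direction. With each line as 1 replicate, the difference from the controls did not pass for IL1B, KRT19, SSX1 and LAMB1. Their adjusted p-values from limma were then 0.12, 0.14, 0.069 and 0.051.

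In some genes 1 of the 4 arrays of a group stood apart by Dixon's test. Among the clone arrays these were 12.18 for ANKRD1 in clone 1 array 2, 6.48 for CDH1, 8.87 for CLDN3 and 10.03 for DHCR7 in clone 2 array 2, and 5.28 for PGR and 13.45 for TIMP1 in clone 2 array 1. Among the control arrays they were 5.75 for CNN3, 4.53 for CXCL11 and 11.16 for NETO2 in parental array 2, 5.51 for IFIT1 and 5.95 for ZNF426 in parental array 1, and 6.40 for PLAU in shGFP array 1. By chance the test flags about 1 in 20 groups whose 4 values are all alike in origin. Here each group holds 2 lines of 2 arrays, so that rate does not apply and the number of flags decides nothing.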

How the results depend on the processing

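The counts of higher and lower genes depended most on what was taken as the replicate. Genes higher in the clones numbered 5560, but 3493 with the line as a random block and 2743 with each line as 1 replicate, where the lower genes numbered 3423 in place of 5886. Leaving out 1 array at a time gave 4466 to 6220 higher, 5391 to 5862 lower, 2439 to 2840 shared higher, 3081 to 3672 shared lower, 1109 to 1167 shared higher of at least 2-fold and 957 to 1080 shared lower of at least 2-fold genes. Of the 97 genes with opposite directions against the 2 controls, 5 are described above, and their direction turned when 1 control was used: against shGFP alone ABCG2 was at 0.96, CHAC1 at -0.66, DDIT3 at -0.73 and SLC7A11 at -1.61, and against parental cells alone DDIT4 was at 0.67. The cause is that the controls differ in these genes. With the replicate block, the counts were 6926 higher, 6199 lower, 3526 and 4154 shared, and 1137 and 1017 shared of at least 2-fold. The replicate differences of every pair of lines correlated positively, at 0.248 to 0.587, so arrays with the same number moved together in part. With 2 numbers a group and no label of a shared batch, the source of this was not tested. The main fit leaves the block out.

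Of 59 lists, 27 had a median log2 difference of 0.3 or more in size, and none of these changed sign under 18 settings, whereas 11 of the others did. Depth does not apply to arrays. Dim genes lie near background, which limits how well their differences are known, and 4 residual degrees of freedom rest on 2 arrays a line.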
